A study of Rattus norvegicus and Mus musculus with 61 samples.

Results

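Heme oxygenases and metallothioneins were followed in cerebral cortex after traumatic brain injury in mouse and rat. The members are the genes Hmox1, Hmox2, Mt1, Mt2 and Mt3, and they were chosen as the probe sets that the array annotation names with these symbols, or with Mt1a or Mt2A in rat. That gave 5 of 12488 probe sets on the mouse array and 7 of 8799 on the rat array. In mouse each gene had 1 probe set (Hmox1 160101_at, Hmox2 101062_at, Mt1 93573_at, Mt2 101561_at and Mt3 95340_at). In rat, Hmox1 had rc_AI179610_at and J02722cds_at, Hmox2 had U05013_at and J05405mRNA_s_at, and Mt3 had rc_AA924772_at. The other 2 rat probe sets carry several symbols: rc_AI102562_at is annotated with Mt1, Mt1f and Ttr, and rc_AI176456_at with Mt2A and Mt1m, so their signal is described as shared and is not assigned to 1 gene. No rat probe set carried Mt1a. All 12 probe sets passed the filter on low values, and none was at the floor in any array.

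Mouse arrays (22) held RNA pooled from the parieto-occipital cortex of 3 male C57BL/6 mice per array, cut as 4 mm disks. The mice were naive (2 arrays), sham operated (2 arrays at each of 4, 8, 24 and 72 h) or injured by controlled cortical impact, in which a piston struck the cortex at 6 m/s to a depth of 1.5 mm (3 arrays at each time). Rat arrays (39) each held RNA from a 7 mm disk of 1 male Sprague-Dawley rat. The rats were naive (3 arrays), sham operated or injured by fluid percussion, a brief pressure pulse of 2.5 atm, with 4 sham and 5 injury arrays at 30 min, 4 and 3 at 4 h, and 2 and 3 at each of 8, 24 and 72 h and 21 d. The disks of injured animals were centred on the impact and held the contusion; ages are not in the labels. Operated mice had isoflurane and operated rats pentobarbital, and the labels name no anesthetic for naive animals. The species differ in injury, disk size, pooling and array, so their values stand side by side without a test between them.

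Heme oxygenases open the ring of heme and release biliverdin, carbon monoxide and iron. Hmox1 is the inducible enzyme, switched on by heme, oxidants and inflammation through the activator NRF2 and relief from the repressor BACH1. In injured brain it is known from microglia, macrophages and astrocytes near blood. Hmox2 is the constitutive enzyme and is abundant in neurons. Metallothioneins are small cysteine-rich proteins that bind zinc and copper. Mt1 and Mt2 are induced by metals through the factor MTF1, by glucocorticoids and by IL-6 family cytokines, mainly in astrocytes, whereas Mt3 is a brain form known from neurons and astrocytes.

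The rat metallothionein promoters are shown because MTF1 acts through the metal response element, whose core was searched as TGCACNC or TGCGCNC on both strands. Each line gives the 250 bases before the gene start in RefSeq (build GRCr8, minus strand), 5′ to 3′, with every match in capitals: Mt1 at chr19:10832976-10833225, Mt2A at chr19:10838709-10838958 and Mt3 at chr19:10856081-10856330, which lie near each other on chromosome 19.
Mt1: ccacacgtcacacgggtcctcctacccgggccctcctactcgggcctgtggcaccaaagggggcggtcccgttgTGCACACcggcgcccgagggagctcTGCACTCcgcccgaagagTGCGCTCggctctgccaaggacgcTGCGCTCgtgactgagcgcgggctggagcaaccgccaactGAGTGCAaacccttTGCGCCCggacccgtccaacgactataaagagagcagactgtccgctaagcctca
Mt2A: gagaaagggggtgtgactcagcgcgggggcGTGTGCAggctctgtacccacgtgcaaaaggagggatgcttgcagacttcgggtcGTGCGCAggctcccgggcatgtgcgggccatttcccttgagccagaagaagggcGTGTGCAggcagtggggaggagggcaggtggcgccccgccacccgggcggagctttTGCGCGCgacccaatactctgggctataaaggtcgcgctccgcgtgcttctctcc
Mt3: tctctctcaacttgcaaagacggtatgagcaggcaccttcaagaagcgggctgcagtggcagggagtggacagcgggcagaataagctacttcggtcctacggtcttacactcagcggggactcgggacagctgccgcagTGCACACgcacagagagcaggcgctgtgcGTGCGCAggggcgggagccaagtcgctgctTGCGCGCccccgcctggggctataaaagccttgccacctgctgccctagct
Mt1 held 6 matches, Mt2A 4 and Mt3 3, and no match overlapped another or a match of the other motifs searched. Of 33469 rat promoters of this length, 20.6% held at least 1 match, 1.17% at least 3, 0.266% at least 4 and 0.0269% at least 6. The table lists 2 promoters for Hmox2, with 2 and 0 matches. The antioxidant response element core TGACNNNGC was found once each in Mt1, Mt2A and 1 Hmox2 promoter, and in 10.1% of all promoters. The STAT site TTCNNNGAA (7.67% of all promoters) was found in the other Hmox2 promoter, and the heat shock element GAANNTTC (7.23%) in none of these 5. A match describes letters in this window and says nothing of binding.

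Values are deposited intensities on a linear scale; their number of arrays, not a read depth, limits the precision. Array medians ran from 285 to 340 in mouse and from 230 to 409 in rat. In rat, 4 arrays stood apart by their median log2 correlation with the remaining arrays. That correlation was 0.61 and 0.73 in replicates 4 and 3 of the 4 h sham group, 0.80 in the fifth injury array of 30 min and 0.83 in the third sham array of 30 min. It was 0.864 to 0.943 in the other 35 rat arrays and at least 0.941 in mouse. Among the 35, all sham and injury arrays of 24 h had high medians (398 to 409) and correlations of 0.864 to 0.876. Injury 72 h replicate 2 was like them (median 390, correlation 0.864), while the other 72 h arrays had medians of 256 to 325. These arrays were kept, and the part of this difference in the 24 and 72 h values was not tested. The 3′ to 5′ signal ratio of Gapdh, a sign of RNA quality, ran from 0.242 to 3.06 in the 4 and from 0.644 to 1.62 in the 35. Rat results are therefore also given without these 4 arrays. In mouse the Gapdh ratio ran from 0.602 to 0.946. The same ratio of beta actin was 0.0552, 0.588 and 0.297 in the 4 h injury arrays, and 0.722 to 3.83 in all other mouse arrays. The part of this difference in the mouse 4 h values was not tested. Each comparison is a difference of log2 intensity, given ± its standard error, from a limma model of all arrays of the species. A gene was called when its adjusted p, over all 6352 genes in mouse or 4089 in rat, was under 0.05. At each time both species' injury effects are read against that time's sham arrays only, and the differences between times share those arrays. Whether injury and sham arrays overlap is described for the members only. It was not counted over all probe sets. Such small groups can lie apart by chance, so a lack of overlap is a description and no test.

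Hmox1 rose in injured mouse cortex at 8, 24 and 72 h, to between 3.22-fold and 7.00-fold the sham level. Its intensity was 1518 and 1252 in the naive arrays. At 4 h it was 1800.4 and 1771 in sham and 2343, 1737 and 2853 in injury arrays. At 8 h it was 1195 and 1098 in sham and 3835, 3785 and 3469.7 in injury arrays. The groups overlapped at 4 h and were apart at 8 h. At 24 h the values were 1286 and 1091 in sham and 5704, 7278 and 4743 in injury arrays. At 72 h they were 1604 and 1082 in sham and 9049, 8170.1 and 10616 in injury arrays. Every injury array thus lay above every time-matched sham array at 8, 24 and 72 h, and the lowest 72 h injury array lay above the highest of 24 h. The injury minus sham difference was 0.34 ± 0.21 at 4 h (adjusted p = 0.687). It was 1.69 ± 0.21 (3.22-fold, adjusted p = 2.48e-05) at 8 h. It was 2.30 ± 0.21 (4.91-fold, adjusted p = 5.25e-07) at 24 h and 2.81 ± 0.21 (7.00-fold, adjusted p = 1.67e-08) at 72 h. Hmox1 was the only member called at 8 h and 24 h and was called with Mt2 at 72 h, against 0.866% of all mouse genes called at 4 h, 8.19% at 8 h, 10.7% at 24 h and 15.5% at 72 h. The calls at 8, 24 and 72 h held under each of the 14 alternatives run for each time, with adjusted p of at most 0.00175, 0.000611 and 0.000437. At 4 h, 1 of the 14 alternatives called a rise, that with all uninjured mouse arrays as control (adjusted p = 0.00624). The 4 h sham arrays had the highest Hmox1 of all sham arrays and held the pituitary signal given with Mt1 below. The part of that signal in the 4 h values was not tested, nor was that of the low beta actin ratios of the 4 h injury arrays. In these bulk samples, more cells that express a gene and more RNA per cell cannot be told apart.

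**Figure D1:**
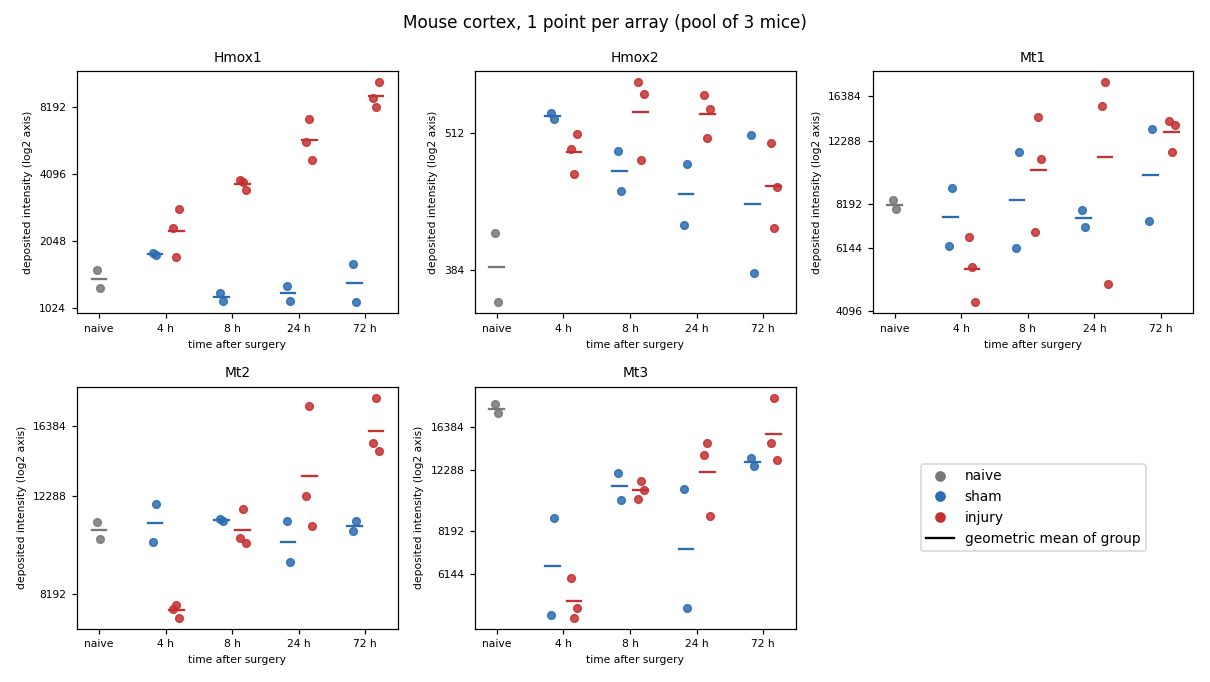
Deposited intensity of the 5 members in mouse cortex on a log2 axis, by time after surgery, with 1 point per array (RNA pooled from 3 mice) and a line at the geometric mean of each group; grey is naive, blue sham and red injury. Hmox1 injury arrays lie above all sham arrays of their time from 8 h, Mt2 injury arrays lie below sham at 4 h and above it at 72 h, and Mt3 is highest in the naive arrays and 1 injury array of 72 h.

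In rat, Hmox1 rose by 4 h, was high to 72 h and lay at the sham level at 21 d. On rc_AI179610_at, which represents the gene, the naive arrays had 420.1, 439 and 482. At 30 min the sham arrays had 401, 419, 306 and 181 and the injury arrays 462, 552, 499, 372 and 201. At 4 h they had 771, 572, 1003 and 428 in sham and 3142, 4386 and 1109 in injury. The groups overlapped at 30 min, and at 4 h injury replicate 3 was only just above the highest sham array, which is 1 of those that stood apart. At 8 h the values were 649.6 and 558 in sham and 4128, 2889 and 2792 in injury. At 24 h they were 741 and 791 in sham and 4245, 2461 and 4316 in injury. At 72 h they were 437 and 419.6 in sham and 2539.6, 3796 and 8375 in injury. At these 3 times the groups did not overlap, and the injury array with the highest value of the series was 1 of the 72 h arrays. At 21 d the sham arrays had 545 and 519 and the injury arrays 502, 649 and 498, which overlapped.

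The rat Hmox1 difference was 0.34 ± 0.35 at 30 min and 1.91 ± 0.40 (3.76-fold, adjusted p = 0.00672) at 4 h. It was 2.42 ± 0.47 (5.34-fold, adjusted p = 0.00539) at 8 h and 2.22 ± 0.47 (4.65-fold, adjusted p = 0.0232) at 24 h. It was 3.34 ± 0.47 (10.1-fold, adjusted p = 4.33e-05) at 72 h and 0.04 ± 0.47 at 21 d. On the probe sets that represent genes, Hmox1 was the only member called in rat, at 4, 8, 24 and 72 h. In the fit over all probe sets, given below, J05405mRNA_s_at of Hmox2 was called at 72 h. The set shared by Mt2A and Mt1m was called there at 4 h. Of all rat genes, 0.0245% were called at 30 min, 4.99% at 4 h, 0.709% at 8 h, 0.269% at 24 h, 2.76% at 72 h and 0% at 21 d. With the 4 arrays that stood apart left out, the difference was 1.90 (adjusted p = 0.018) at 4 h, 2.42 (adjusted p = 0.00101) at 8 h, 2.22 (adjusted p = 0.00664) at 24 h and 3.34 (adjusted p = 5.27e-06) at 72 h. The 72 h call held under all 14 alternatives. Single arrays ended the other calls: the adjusted p was 0.0566 and 0.116 at 4 h without injury replicate 1 or 2, 0.143 at 8 h without sham replicate 2, and 0.134, 0.141, 0.412 and 0.281 at 24 h without injury replicate 1 or 3 or sham replicate 1 or 2. The 4 h adjusted p was 0.552 when only the compared groups were fitted.

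The other rat Hmox1 probe set, J02722cds_at, was likewise higher in injury than in sham arrays at 8, 24 and 72 h. Its naive arrays had 151, 157 and 69. It was above the filter value of 203 in only 19 of 39 arrays, and its lowest value was 40.7 against a floor of 32.3. Its differences are thus read against low sham values. At 72 h its sham arrays had 134 and 88.4 and its injury arrays 766, 1469.6 and 4404. At 21 d they had 136 and 51.2 in sham and 86.2, 63 and 66.7 in injury. The 72 h groups were far apart and the 21 d groups overlapped; injury arrays also lay above all sham arrays at 8 h (1584, 671 and 979 against 211 and 109.7) and 24 h (1495, 952 and 1732 against 390.0 and 351). Over all 7158 rat probe sets, its difference was 1.70 ± 0.63 (adjusted p = 0.0817) at 4 h, 2.73 ± 0.76 (adjusted p = 0.116) at 8 h, and 1.87 ± 0.76 (adjusted p = 0.764) at 24 h. It was called at 72 h (3.97 ± 0.76, adjusted p = 0.00241), and without sham 72 h replicate 2 the adjusted p was 0.0898. Of all rat probe sets, 0.014% were called at 30 min, 5.29% at 4 h, 0.461% at 8 h, 0.335% at 24 h, 2.19% at 72 h and 0% at 21 d. Without the 4 arrays that stood apart it was called at 8 h (2.73, adjusted p = 0.0312) and 72 h (3.97, adjusted p = 0.000411).

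**Figure D2:**
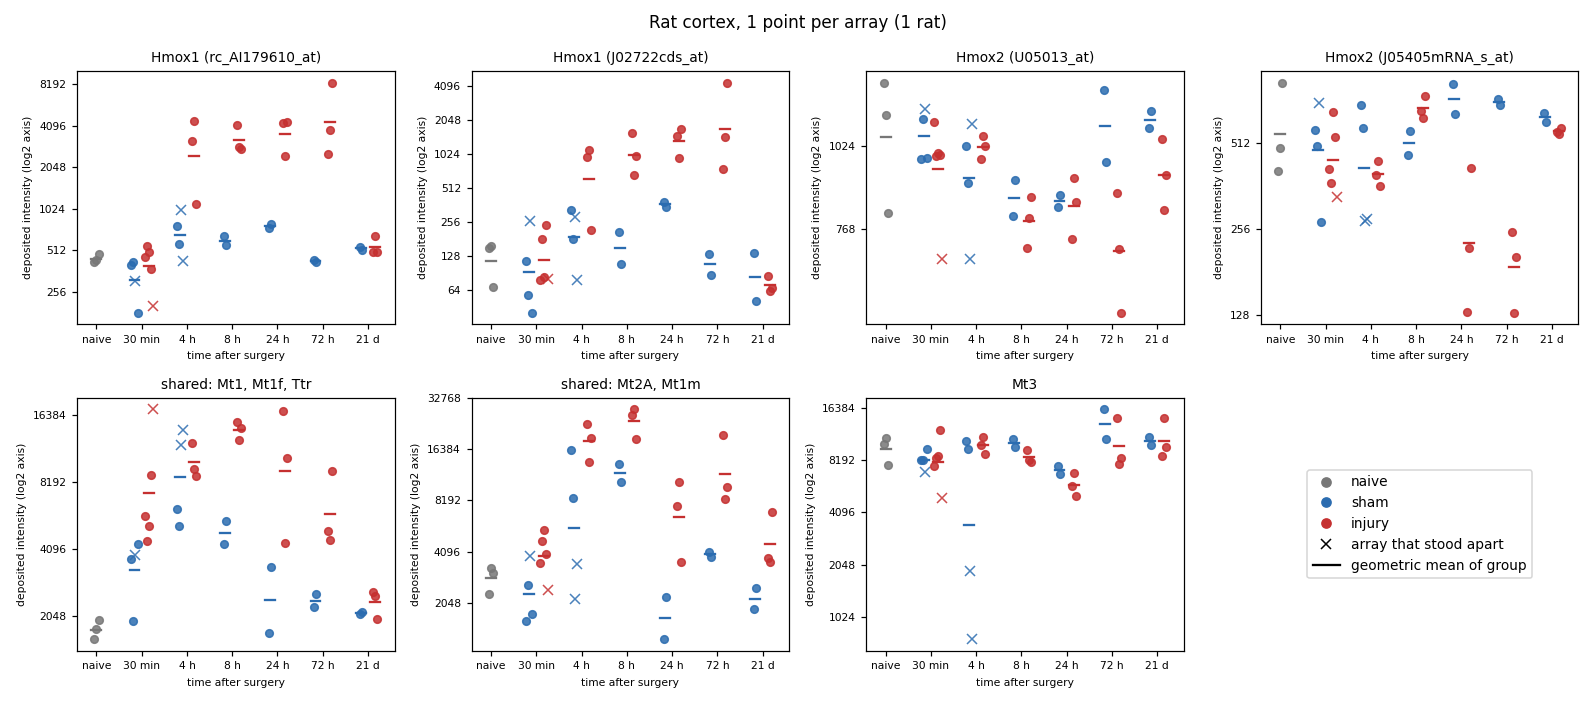
Deposited intensity of the 7 rat probe sets on a log2 axis, by time after surgery, with 1 point per array (1 rat) and a line at the geometric mean of each group; grey is naive, blue sham and red injury, and crosses mark the 4 arrays that stood apart. Hmox1 on rc_AI179610_at is above sham in all injury arrays from 4 to 72 h, J02722cds_at overlaps sham at 4 h, and both lie among the sham arrays at 21 d, and both shared metallothionein probe sets are high in sham as well as injury arrays at 4 and 8 h.

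Hmox2, the constitutive heme oxygenase, was not called in mouse at any time. Its mouse intensity was 416 and 359 in naive arrays, 382 to 534 in sham arrays and 419 to 569 in injury arrays. At 4 h the injury arrays (495, 469.6 and 510.3) lay below both sham arrays (534 and 527), and at 24 h (555, 506 and 538) above both (423 and 480.1). The groups overlapped at 8 and 72 h, and no mouse array left the range of 359 to 569. The differences were -0.11 ± 0.17 at 4 h, 0.18 ± 0.17 at 8 h, 0.24 ± 0.17 at 24 h and 0.05 ± 0.17 at 72 h, with the smallest adjusted p of 0.418 at 24 h.

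In rat, both Hmox2 probe sets were lower in injury than in sham arrays at 72 h, by different amounts. On U05013_at the 72 h sham arrays had 1244 and 969 and the injury arrays 871, 715 and 573. On J05405mRNA_s_at they had 737 and 699.9 in sham and 249, 130.0 and 204 in injury. On both, every 72 h injury array lay below every sham array. At 24 h the probe sets disagreed: J05405mRNA_s_at had 828 and 652 in sham and 131, 219 and 419 in injury, which did not overlap. On U05013_at the 24 h values were 829 and 865 in sham and 741, 916 and 841 in injury, which overlapped. The 72 h difference on U05013_at was -0.63 ± 0.25, adjusted p = 0.202, and -0.63 (adjusted p = 0.0458) without the 4 arrays that stood apart. On J05405mRNA_s_at it was called at 72 h (-1.94 ± 0.44, adjusted p = 0.0131) and not at 24 h (-1.68 ± 0.44, adjusted p = 0.102). Leaving out the 4 arrays gave -1.94 (adjusted p = 0.00135) at 72 h and -1.68 (adjusted p = 0.0186) at 24 h. The 72 h call on J05405mRNA_s_at was lost without injury 72 h replicate 2 (adjusted p = 0.0874), sham 72 h replicate 1 (0.174) or sham 72 h replicate 2 (0.132). Injury 72 h replicate 2 is the array that was like those of 24 h. At 21 d the injury arrays lay below both sham arrays by less, with 560.3, 554 and 582 against 656 and 611 on J05405mRNA_s_at and 1048, 819 and 926 against 1089.7 and 1156 on U05013_at. At 8 h the injury arrays on J05405mRNA_s_at lay above sham (664, 631 and 753 against 465 and 564). The difference was 0.41 ± 0.44 at 8 h and -0.16 ± 0.44 at 21 d, neither called. The summed intensity of 8 neuron markers was 11960 to 25017 in the 72 h injury and 37648 to 38100.2 in the 72 h sham arrays, and 1 of the 8, the neurofilament gene Nefm (-1.96 ± 0.43, adjusted p = 0.00959), fell at 72 h (4 without the arrays that stood apart). Of all rat genes, 2.76% were called at 72 h. The part of neurons in the Hmox2 values was not tested.

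Mt2 was the only mouse metallothionein called in an injury comparison, at 72 h. It was bright in every mouse array, and the naive arrays had 11009 and 10276. At 4 h the sham arrays had 10157 and 11865 and the injury arrays 7689, 7831 and 7416. At 8 h they had 11159 and 11074 in sham and 10292, 11622 and 10078 in injury. All 4 h injury arrays lay below sham and below naive, while the 8 h groups overlapped. At 24 h the values were 11040 and 9337 in sham and 12240, 17797 and 10829 in injury. At 72 h they were 10624 and 11044 in sham and 15239.5, 18412 and 14786 in injury. The 24 h groups overlapped, and all 72 h injury arrays lay above sham and naive. The difference was -0.52 ± 0.17 (adjusted p = 0.24) at 4 h, 0.39 ± 0.17 (adjusted p = 0.159) at 24 h, and 0.57 ± 0.17 (1.48-fold, adjusted p = 0.0263), at 72 h. The 72 h call was lost in 6 of 14 alternatives, among them those without injury replicate 2 (adjusted p = 0.0901), sham 1c (0.0802) or sham 1d (0.105). With all uninjured mouse arrays as 1 control group, the 4 h difference was -0.49 (adjusted p = 0.00826). The 4 h sham arrays held the pituitary signal given with Mt1 below, and the 4 h injury arrays had the lowest beta actin ratios in mouse. The part of neither was tested.

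Mt1, whose protein binds zinc and copper as that of Mt2 does, varied widely within groups. The naive arrays had 8373 and 7919. At 4 h the sham arrays had 6245 and 9087 and the injury arrays 6609, 5429 and 4338. At 8 h they had 6148 and 11435 in sham and 6818, 14303 and 10915 in injury. Both pairs of groups overlapped. At 24 h the sham arrays had 7867 and 7056 and the injury arrays 15405, 17967 and 4883. At the last time, 72 h, they had 7306 and 13253 in sham and 14001, 11437 and 13666 in injury. These groups overlapped too, and injury 24 h replicate 3 was below all other arrays of its time. The difference was -0.49 ± 0.42 at 4 h, 0.28 ± 0.42 at 8 h, 0.57 ± 0.42 (adjusted p = 0.456) at 24 h, and 0.40 ± 0.42 at 72 h, none called. Without injury 24 h replicate 3, the 24 h difference was 1.16 (adjusted p = 0.0365). In the 4 h sham arrays, summed markers of pituitary (5 of 8 listed genes measured, including the hormone genes Prl, Cga, Lhb and Pomc) were 18210 to 20462, against 1640 to 2582 in all other mouse arrays, and in injury against sham at 4 h 4 of the 5 fell and 1 rose. Of all mouse genes, 0.866% were called at 4 h. The summed choroid plexus markers (3 measured) were 7595 to 8590 in the 4 h sham arrays and 739 to 6810 in all other mouse arrays. The part of the pituitary and choroid plexus signal in the 4 h values of the members was not tested. Nor was that of the low beta actin ratios of the 4 h injury arrays.

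The rat probe set shared by Mt2A and Mt1m was high in sham arrays too at 4 and 8 h. The naive arrays had 2312, 3282 and 3073. At 30 min the sham arrays had 1604, 2595, 3839 and 1754 and the injury arrays 3503, 4711, 5491, 3958 and 2430.0. At 4 h they had 16198, 8408, 2146 and 3438 in sham and 23145, 13828 and 19035 in injury. The 4 h groups overlapped, and the low sham values were those of replicates 3 and 4, which stood apart. At 8 h the values were 13409 and 10433 in sham and 26197, 28169.6 and 18815 in injury. At 24 h they were 1249 and 2211 in sham and 7553, 10554 and 3566 in injury. At 72 h they were 4068 and 3817 in sham and 19939, 8330.4 and 9831 in injury. The groups did not overlap at these 3 times, nor at 21 d (1884 and 2489.7 in sham and 3741, 3542 and 7009 in injury). The 21 d difference of 1.06 was not called. The difference was 1.70 ± 0.47 (adjusted p = 0.0385) at 4 h, and 0.65 (adjusted p = 0.633) without the 4 arrays that stood apart, so the 4 h call rested on them. It was 1.02 ± 0.56 (adjusted p = 0.696) at 8 h, 1.98 ± 0.56 (adjusted p = 0.156) at 24 h, and 1.58 ± 0.56 (adjusted p = 0.133) at 72 h. It was called, with the 4 arrays left out, at 24 h (1.98, adjusted p = 0.00782) and 72 h (1.58, adjusted p = 0.0109), not at 8 h (1.02, adjusted p = 0.199). Leaving out any 1 of the 7 arrays of 4 h except sham replicates 1 and 2 also ended the 4 h call, with adjusted p of 0.121, 0.1 and 0.0927 without injury replicates 1, 2 and 3, and 0.143 and 0.179 without sham replicates 3 and 4.

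The rat probe set shared by Mt1, Mt1f and Ttr was not called at any time over all arrays. The naive arrays had 1603, 1774 and 1956. At 30 min the sham arrays had 3687, 1937, 3832 and 4279 and the injury arrays 5772, 4443, 5165, 8754 and 17387. Every injury array lay above every sham array at 30 min, the top one being replicate 5, which stood apart; the difference was 1.14 ± 0.36 (adjusted p = 1) and 0.90 (adjusted p = 1) without the 4 arrays. At 4 h the sham arrays had 6200.5, 5196, 12021 and 13939 and the injury arrays 12249, 9355 and 8743. At 8 h they had 4302 and 5436 in sham and 15264, 12585 and 14372 in injury. At 4 h the highest values were those of sham replicates 3 and 4, and at 8 h the groups did not overlap. At 24 h the values were 1710.2 and 3403 in sham and 16975, 4358 and 10467 in injury. At 72 h they were 2235 and 2548 in sham and 4912, 4492 and 9189 in injury. The groups were apart at both times, and at 21 d sham (2086 and 2121) and injury arrays (2609.9, 2513 and 1971) overlapped. The difference was 1.54 ± 0.49 (adjusted p = 0.232) at 8 h, 1.93 ± 0.49 (adjusted p = 0.0932) at 24 h, and 1.30 ± 0.49 (adjusted p = 0.174) at 72 h. Without the 4 arrays that stood apart it was 1.54 (adjusted p = 0.0355), 1.93 (adjusted p = 0.00923) and 1.30 (adjusted p = 0.0334), called at all 3 times. Without injury 24 h replicate 2 alone, the 24 h difference was 2.47 (adjusted p = 0.00913). Ttr, a choroid plexus gene, has 2 rat probe sets of its own, whose intensities ran from 115 to 28369 and from 230.2 to 34030 over the 39 arrays. Their log2 correlations with the shared probe set over these arrays were -0.23 and -0.10, and the part of Ttr in the shared signal was not tested.

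Mt3, the brain metallothionein, was not called against sham in either species. In mouse the naive arrays had 19061 and 17984. At 4 h the sham arrays had 4656 and 8934 and the injury arrays 5956, 4578 and 4883. At 24 h they had 10808 and 4886 in sham and 13552, 14659 and 9035 in injury. At 4 h sham 1b and all injury arrays were low, and at 24 h sham 1c was apart from its pair. At 8 h the sham arrays had 12057 and 10058 and the injury arrays 10149, 11386 and 10766. At the last time, 72 h, they had 13315 and 12595 in sham and 14693, 19909.7 and 13151 in injury. Only 1 operated mouse array, injury 72 h replicate 2, reached the naive level, and the groups overlapped at all 4 times. The mouse difference was -0.34 ± 0.29 (adjusted p = 0.82) at 4 h, -0.03 ± 0.29 at 8 h, 0.74 ± 0.29 (adjusted p = 0.115) at 24 h, and 0.27 ± 0.29 at 72 h. Without sham 24 h replicate 1c the 24 h difference was 1.31 (adjusted p = 0.0141). With all uninjured arrays as control, the 4 h difference was -1.03 (adjusted p = 0.0429). The 4 h sham arrays held the pituitary signal given with Mt1 above, and the 4 h injury arrays had the lowest beta actin ratios in mouse. The part of neither was tested.

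In rat, Mt3 ran from 4959.8 to 16192 in every array outside the 4 h sham group. That group had 10589, 9552, 1887 and 759, and the low values were replicates 3 and 4, which stood apart. The 4 h injury arrays had 9987, 11206 and 8939, close to the naive 10132, 11033 and 7750.2. The 4 h difference was 1.53 ± 0.50, adjusted p = 0.0586, and -0.01 (adjusted p = 0.994) without the 4 arrays that stood apart. Without sham 4 h replicate 1 or 2 it was 2.06 (adjusted p = 0.0037) or 2.01 (adjusted p = 0.00609). At 8 h the injury arrays (9407, 8278 and 8010.4) all lay below sham (10949 and 9848), by -0.28 ± 0.59, which was not called. The differences at 30 min, 24 h, 72 h and 21 d were -0.03 ± 0.44, -0.29 ± 0.59, -0.43 ± 0.59 and 0.01 ± 0.59, with overlapping groups.

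**Figure D3:**
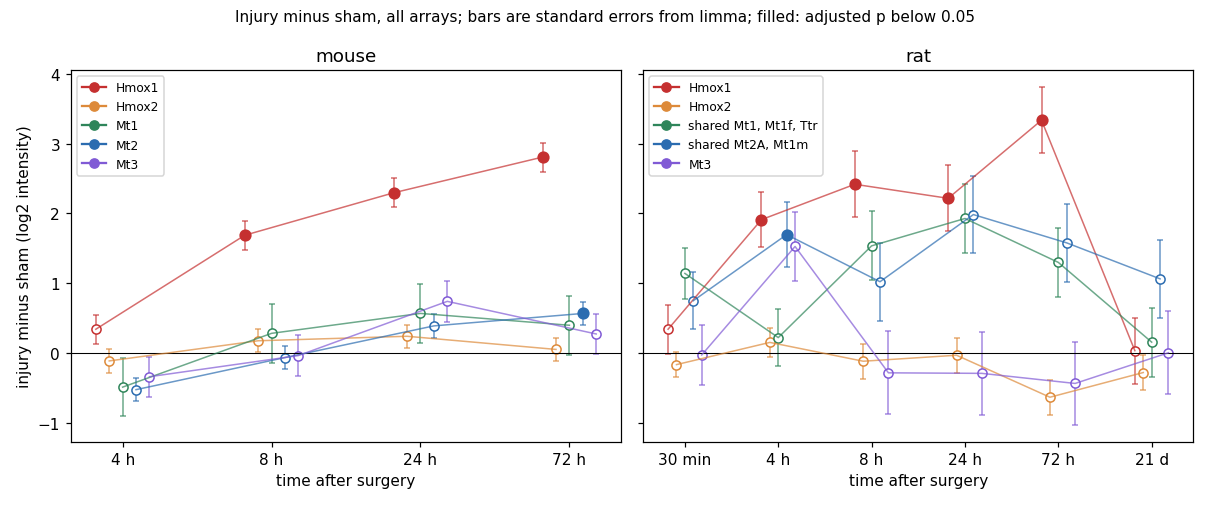
Injury minus sham on the log2 intensity scale at each time in mouse (left) and rat (right), for each gene on the probe set that represents it and for both shared rat probe sets, with bars of 1 standard error from limma over all arrays, and filled points where the adjusted p was below 0.05. Hmox1 is filled at 8, 24 and 72 h in mouse and from 4 to 72 h in rat, where it falls to 0.04 at 21 d, while Hmox2 stays within 0.63 of 0 in both species on the probe sets plotted; the second rat Hmox2 probe set, J05405mRNA_s_at, is not plotted and was -1.94 ± 0.44 (adjusted p = 0.0131) at 72 h.

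The change of the injury effect between times was tested as a difference of differences. In mouse the Hmox1 effect grew between 4 and 8 h (1.35 ± 0.29, adjusted p = 0.0381) and from 4 to 72 h (2.46 ± 0.29, adjusted p = 3.9e-05). Between 8 and 24 h (0.61 ± 0.29, adjusted p = 0.671) and between 24 and 72 h (0.51 ± 0.29, adjusted p = 0.562) no growth passed the test. The Mt2 effect went from below to above 0 between 4 and 72 h (1.09 ± 0.24, adjusted p = 0.00882). No other mouse member was called. Every comparison with 4 h rests on the 4 h sham arrays, which held pituitary signal and the highest choroid plexus sums in mouse. The pituitary sum was 18210 to 20462 there, against 1640 to 2582 in all other mouse arrays. It also rests on the 4 h injury arrays, which had the lowest beta actin ratios in mouse. The part of these signals and ratios in these effects was not tested. Of all mouse genes, 0.614% were called for 8 h minus 4 h, 0.0472% for 24 h minus 8 h, 0.283% for 72 h minus 24 h and 5.23% for 72 h minus 4 h. The 8 h minus 4 h call of Hmox1 was lost when single arrays were left out: injury 4 h replicate 1 (adjusted p = 0.0563) or 2 (0.0934), injury 8 h replicate 1 (0.0709), 2 (0.0877) or 3 (0.0556), sham 4 h 1b (0.121) or 1c (0.173), and sham 8 h 1b (0.107) or 1c (0.0986). That of Mt2 was lost without sham 4 h 1c (adjusted p = 0.0657).

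In rat the Hmox1 effect was lower at 21 d than at 72 h (-3.30 ± 0.67, adjusted p = 0.0226). Without the 4 arrays that stood apart it was -3.30 (adjusted p = 0.00413). No other neighbouring pair of rat times was called for a member, with the Hmox1 effect 1.57 ± 0.53 higher at 4 h than at 30 min (adjusted p = 0.227). Of all rat genes, 0% were called for 4 h minus 30 min, 0.0489% for 8 h minus 4 h, 0% for 24 h minus 8 h, 0.0245% for 72 h minus 24 h and 0.171% for 21 d minus 72 h. The 21 d minus 72 h adjusted p rose to between 0.0527 and 0.171 when injury 21 d replicate 1 or 3, injury 72 h replicate 3, or any sham array of 21 d or 72 h was left out.

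Sham surgery was set against naive cortex as a background. Over all sham groups, no member was called in mouse, where 0.11% of genes were called, or in rat, where 0.0245% of genes and 0.0279% of probe sets were. The largest mouse difference was that of Mt3 (-1.03 ± 0.25, adjusted p = 0.167), which was -1.18 (adjusted p = 0.0154) without sham 24 h replicate 1c. Hmox1 differed by -0.04 ± 0.18 in mouse and 0.24 ± 0.33 in rat. Single times were compared after the values had been seen. Mouse Mt3 was lower in 4 h sham than in naive arrays (-1.52 ± 0.32, adjusted p = 0.0248; 0.551% of genes called), but was not called without sham 4 h 1b (0.46), naive replicate 1 (0.159) or naive replicate 2 (0.157), or after quantile normalization (0.106). These 4 h sham arrays held the pituitary signal given with Mt1, and its part was not tested. The rat probe set shared by Mt1, Mt1f and Ttr was higher in 4 h sham than in naive arrays (2.27 ± 0.41, adjusted p = 0.0163; 0.14% of probe sets called), and was 1.68 (adjusted p = 0.111) without the 4 arrays that stood apart. That call was also lost without any 1 naive array or sham 4 h replicate 3 or 4, with adjusted p from 0.0628 to 0.148. The probe set shared by Mt2A and Mt1m had 0.98 ± 0.47 (adjusted p = 0.174) at 4 h and 2.05 ± 0.56 (adjusted p = 0.303) at 8 h, and without the 4 arrays 2.03 (adjusted p = 0.0449) and 2.05 (adjusted p = 0.0181).

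Among themselves the mouse metallothioneins ran together over the 22 arrays, with Pearson's r of 0.743 for Mt1 with Mt2, 0.723 for Mt2 with Mt3 and 0.615 for Mt1 with Mt3. Hmox1 had r = 0.606 with Mt2 and 0.354 with Hmox2. Over the 39 rat arrays the shared metallothionein probe sets had r = 0.519 with each other, and Hmox1 had 0.651 with the one shared by Mt2A and Mt1m and -0.53 with Hmox2. These r are descriptions over arrays that share groups and times, without a test. The genes most like Hmox1 in mouse were Ifitm3 (r = 0.976), Lgals3, Cd72, Lyz2 and S100a6 (0.949). In rat they were Timp1 (0.923), Spp1, Anxa2, Lcn2 and Hspb1 (0.880). Mouse Mt1 and Mt2 shared Tmsb10, Ybx1 and Rps18 among their nearest 5, with r from 0.815 to 0.903. Mouse Mt3 was nearest to Dnm1 (0.973), Gnas, Ptms, Rps28 and Apoe (0.954), and rat Mt3 to Cst3 (0.956), Akr1a1, Uqcr11, Rps16 and Gpx4 (0.919). The rat probe set shared by Mt1, Mt1f and Ttr was nearest to Cryab (0.805), and the one shared by Mt2A and Mt1m to Hspb1 (0.709), with Hmox1 (0.651) also among its nearest 5. Hmox2 had no gene above 0.781 (Sh3bp5, in mouse) or 0.736 (Camk2g, in rat).

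Genes of heme and iron handling were called about as often as all genes. In mouse, 3 of 18 measured genes were called at some time (16.7%, against 23.4% of all mouse genes), 2 higher and 1 lower. Cp, the ferroxidase ceruloplasmin, rose by 1.75 ± 0.30 (adjusted p = 0.000755) at 8 h and 2.21 ± 0.30 (adjusted p = 5.22e-05) at 24 h. Hfe, a regulator of iron uptake, rose at 72 h (1.50 ± 0.32, adjusted p = 0.00309), and Uros, an enzyme of heme synthesis, fell at 24 h (-0.56 ± 0.18, adjusted p = 0.0474). In rat 1 of 14 was called (7.14%, against 7.78% of all rat genes): the transferrin receptor gene Tfrc at 4 h (1.72 ± 0.52, adjusted p = 0.0496), where no gene of the list was called without the 4 arrays that stood apart. Of the regulators and targets of NRF2 and BACH1, 7 of 20 were called in mouse (35%), 6 higher and 1 lower. Nfe2l2, which encodes NRF2, rose at 24 h (0.96 ± 0.21, adjusted p = 0.00535) and 72 h (1.28 ± 0.21, adjusted p = 0.00032). Txnrd1 (thioredoxin reductase, 0.83 ± 0.14, adjusted p = 0.000421) and Txn1 (thioredoxin, 0.79 ± 0.13, adjusted p = 0.00022) also rose at 72 h, while the carbonyl reductase gene Cbr1 fell (-0.99 ± 0.16, adjusted p = 0.000231). None of 16 was called in rat over all arrays, and without the 4 arrays that stood apart 1 fell at 8 h and 2 rose at 72 h.

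Genes of zinc and copper handling were split in mouse, with 2 of 16 higher and 3 lower at some time (31.3% called, against 23.4% of all mouse genes). Mtf1, which encodes the metal sensor of metallothionein promoters, fell at 72 h (-1.06 ± 0.30, adjusted p = 0.0199), as did the vesicular zinc transporter gene Slc30a3 (-0.54 ± 0.15, adjusted p = 0.0178). The zinc importer gene Slc39a1 rose at 72 h (0.78 ± 0.22, adjusted p = 0.0228), and Slc39a6, a zinc transporter gene, fell at 8 h (-0.78 ± 0.22, adjusted p = 0.0279). None of the 5 measured in rat was called, where 7.78% of all genes were. IL-6 and STAT3 signalling had 8 of 17 mouse genes higher and none lower (47.1%). Cebpd, a transcription factor, also on the glucocorticoid list, rose at all 4 times, by 1.95 ± 0.18 (adjusted p = 7.12e-06) at 4 h, 3.19 ± 0.18 (adjusted p = 1.24e-09) at 8 h, 3.10 ± 0.18 (adjusted p = 2.1e-09) at 24 h and 2.70 ± 0.18 (adjusted p = 4.99e-09) at 72 h. Socs3, the feedback inhibitor, was highest at 24 h (2.92 ± 0.31, adjusted p = 3.79e-06), as was the oncostatin M receptor gene Osmr (2.89 ± 0.25, adjusted p = 4.05e-07). In rat 3 of 15 rose, all at 4 h: Cebpb (2.05 ± 0.44, adjusted p = 0.00986), the cytokine gene Il6 (3.18 ± 0.77, adjusted p = 0.0227) and Junb (1.89 ± 0.50, adjusted p = 0.0356). With those 4 arrays left out, 2 rose at 4 h and 1 each at 8 and 24 h.

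Glucocorticoid targets had 8 of 15 mouse genes higher and 3 lower at some time (73.3% called, against 23.4% of all mouse genes). The 3 lower genes are not among those named. Fkbp5, a chaperone of the receptor, rose at 4 h (0.75 ± 0.17, adjusted p = 0.0383) and 8 h (0.94 ± 0.17, adjusted p = 0.00136) and had 0.22 ± 0.17 (adjusted p = 0.474) at 24 h. Nfkbia, the NF-kB inhibitor gene, was highest at 8 h (1.29 ± 0.13, adjusted p = 2.72e-06), and the cell cycle inhibitor gene Cdkn1a rose at 24 h (2.38 ± 0.22, adjusted p = 8.61e-07). In rat 3 of 10 rose, all at 4 h: Errfi1 (1.72 ± 0.31, adjusted p = 0.00234), a feedback inhibitor of EGF receptor, Nfkbia (1.41 ± 0.26, adjusted p = 0.00234) and the phosphatase gene Dusp1 (2.66 ± 0.56, adjusted p = 0.00774). These were 30% of the list, against 7.78% of all rat genes called at some time. Without the 4 arrays that stood apart, 2 targets rose at 4 h and 2 at 8 h, 1 fell at 8 h and 1 at 72 h. The median difference over each list and time is a description and ran from -0.13 (zinc and copper, 72 h) to 0.75 (glucocorticoid targets, 4 h) in mouse and from -0.44 (zinc and copper, 4 h) to 0.72 (IL-6 and STAT3, 8 h) in rat.

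Some markers of microglia and macrophages rose in mouse from 4 h and in rat from 8 h. Of all mouse genes, 0.866% were called at 4 h, 8.19% at 8 h, 10.7% at 24 h and 15.5% at 72 h. In mouse 2 of 15 measured markers rose at 4 h, 5 at 8 h, 8 at 24 h and 13 at 72 h, and none fell. Their summed intensity was 8539 to 10446 over the sham arrays, 12554 to 15373 in 4 h injury, 15020.1 to 17681 in 8 h injury, 17739 to 19031 in 24 h injury and 30422 to 41114 in 72 h injury arrays. Lyz2, the lysozyme gene of these cells, rose by 5.37 ± 0.33 (adjusted p = 2.68e-09) at 72 h, and Cd68, a lysosomal marker, by 2.69 ± 0.22, adjusted p = 5.55e-08. Within the 12 injured mouse arrays Hmox1 had Pearson's r of 0.891 and Spearman's rho of 0.979 with this sum, and within the 10 uninjured arrays 0.419 and 0.188. In rat 1 of 9 rose at 8 h, 2 at 24 h and 5 at 72 h, and none at 30 min, 4 h or 21 d; with the 4 arrays that stood apart left out, 2, 3 and 5 rose at 8, 24 and 72 h. Over all times 55.6% of the rat markers were called, against 7.78% of all rat genes. The sum of the markers was 8060 to 11196 in sham arrays, 9646 to 14135 in 4 h injury and 21328 to 38104 in 72 h injury arrays. At 4 h no marker of the list was called in rat; the sums of the 3 injury arrays were 12097, 14135 and 9646, where Hmox1 was 3142, 4386 and 1109, and the first and second of them lay above all 4 h sham sums (8242 to 11196). Within the 20 injured rat arrays r was 0.620 and rho 0.665, and within the 19 uninjured arrays 0.136 and 0.044. These correlations, on log2 values, describe arrays that share times, and the part of these cells in the Hmox1 values was not tested.

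Markers of other resident cells moved over the same times in mouse. Of 11 markers of endothelial cells and pericytes, 3 rose at 8 h, 3 at 24 h and 5 at 72 h, and none fell; Vwf, the von Willebrand factor gene, rose by 2.02 ± 0.31 (adjusted p = 0.000152) at 72 h. Their sum was 10363 to 11783 in 72 h injury against 5273 to 6605 in 72 h sham arrays. Of 6 oligodendrocyte markers, 4 rose at some time and none fell, among them the myelin gene Mag (1.10 ± 0.21, adjusted p = 0.00125 at 72 h), and the sum was 21618 to 25752 in 72 h injury against 18480 to 19101 in sham arrays. At some time 45.5% of the endothelial and 66.7% of the oligodendrocyte markers were called in mouse, against 23.4% of all mouse genes. Within the 12 injured mouse arrays, Hmox1 had r of 0.878 and rho of 0.860 with the endothelial sum, 0.892 and 0.860 with the astrocyte sum and 0.752 and 0.650 with the oligodendrocyte sum. Pearson's r with the endothelial and astrocyte sums was close to that with the macrophage sum. In the 20 injured rat arrays r was 0.029, 0.176 and -0.19 with the same 3 sums; none of 5 rat endothelial markers was called, and 1 of 5 oligodendrocyte markers rose, at 4 h, but not without the 4 arrays that stood apart. Without those arrays 1 marker of each of these 2 lists fell at 72 h in rat. Over all arrays 7.78% of rat genes were called at some time. The part of these cells in the Hmox1 values was not tested.

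**Figure D4:**
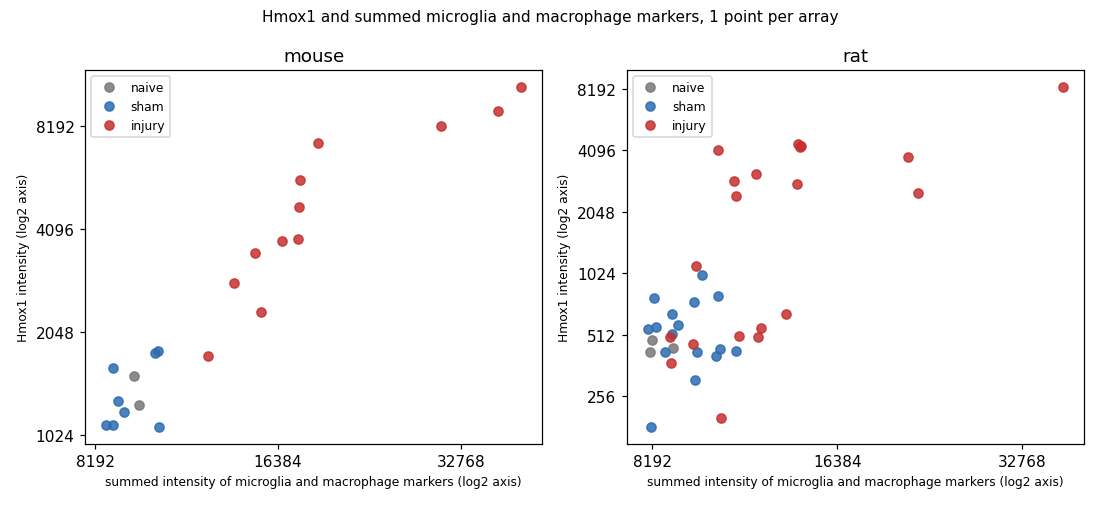
Hmox1 intensity against the summed intensity of the microglia and macrophage markers (15 in mouse, 9 in rat), both on log2 axes, with 1 point per array; grey is naive, blue sham and red injury. In mouse the injured arrays have Hmox1 of 1737 to 2853 at sums of 12554 to 15373 at 4 h. They have 4743 to 7278 at sums of 17739 to 19031 at 24 h, and 8170 to 10616 at 30422 to 41114 at 72 h. In rat the injured arrays of 4 h have Hmox1 of up to 4386 at sums of 9646 to 14135.

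Some red blood cell genes were higher in injury than in time-matched sham arrays at early times. In mouse 2 of 4 markers rose at 4 h and 2 at 8 h, among them Alas2, the heme synthesis gene of red cells (1.28 ± 0.29 (adjusted p = 0.0369) at 4 h), and none rose at 24 or 72 h. Their sum was 17101 to 22597 in 8 h injury against 10503 to 11181 in 8 h sham arrays, and 10208 to 14196 in 72 h injury against 11282 to 16261 in 72 h sham arrays. At 4 h it was 14905 to 16761 in injury against 8884 to 9297 in sham arrays. These 4 h sham sums were the lowest in mouse, from the arrays with pituitary signal, and 24 h sham arrays had 14881 to 15411. The part of the low 4 h sham values in the 4 h rise was not tested. In rat 3 of 4 rose at 4 h and 1 at 8 h, and without the 4 arrays that stood apart 1 at 4 h and 2 at 8 h. Of all genes, 0.866% were called at 4 h and 8.19% at 8 h in mouse, and 4.99% and 0.709% in rat. Within injured arrays the correlation of Hmox1 with this sum was -0.40 in mouse (12 arrays) and 0.082 in rat (20 arrays). Its part in the Hmox1 values was not tested. Astrocyte markers, of which 9 were measured in each species, were mixed: in mouse 2 rose and 3 fell at some time. The share called was 44.4% in mouse and 22.2% in rat, against 23.4% and 7.78% of all genes. At 72 h Gfap, the reactive astrocyte filament (2.76 ± 0.30, adjusted p = 2.66e-06), rose, as did the water channel gene Aqp4 (1.94 ± 0.55, adjusted p = 0.0212). Gja1, the gap junction gene, fell at 24 h (-1.07 ± 0.16, adjusted p = 0.000249). Both Aqp4 (-2.08 ± 0.55, adjusted p = 0.0225) and the glutamine synthetase gene Glul (-0.88 ± 0.26, adjusted p = 0.0401) fell at 8 h in mouse. In rat Aldoc, a glycolytic enzyme gene of astrocytes, rose at 4 h (1.90 ± 0.56, adjusted p = 0.0455), where no marker of the list was called without the 4 arrays that stood apart, and Vim, an intermediate filament gene, rose at 72 h (2.83 ± 0.45, adjusted p = 0.000192).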

How the data were processed

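The values are intensities as deposited in the series matrix tables, linear in scale; the software the authors used to make these intensities is not given in the sources used here. Within a species every array had the same mean after trimming 2% at each end (800.3 to 800.5 in mouse, 800.6 to 801.2 in rat), so the deposited scale was kept. Groups were read from the sample labels. The 2 mouse sham arrays of a time share a number and differ in a letter (1b, 1c, 1d); whether these are separate pools is not settled by the labels, they were treated as separate, and p-values then measure the spread between arrays.

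Before log2, values under the 10th percentile of all arrays (24.1 for mouse and 32.3 for rat) were raised to it. Probe sets above the pooled 40th percentile (194 and 203) in at least 3 arrays were kept (8471 and 7158; 66 and 59 control probe sets left out). A gene was represented by its probe set with 1 symbol and the highest mean. Probe sets were named from the platform annotation. 1 model per species with a mean per group was fitted with limma 3.58.1 in R 4.3.3 (variance trend; 13 and 26 residual degrees of freedom), with Benjamini-Hochberg adjustment over all genes of a contrast. The second rat probe sets and those with several symbols were read from a fit over all probe sets, an alternative chosen after seeing the data, as were the sham groups against naive at single times and the correlations with marker sums. The fit was tested on simulated data. The alternatives were other scaling, filter, floor, probe set rule, controls, blocks and samples, each array left out in turn, and rat without 4 arrays.

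The members and gene lists were chosen with earlier results of these data known. Named genes were all members, up to 4 called genes per list and species by smallest adjusted p, and the 5 genes of highest Pearson's r per member. Sequences are RefSeq's (GRCr8), from a table that held promoters of Mt1, Mt2A, Mt3 and Hmox2. Plots used Python 3.11.15 with matplotlib 3.10.9.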

Additional observations from a re-analysis of the deposited data

Results flagged for a closer look

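Of 21 sets of values (7 rat probe sets in each of the 3 groups with 4 or 5 arrays), 1 held an array far from the others, and chance alone gives about 1 in 20. It was Hmox2 on U05013_at in rat injury 30 min replicate 5, at 692 against 990.3 to 1113 in the other 4 arrays of that group; the same array stood apart over all probe sets. The injury effect differed between times for Hmox1 in both species and for Mt2 in mouse. For mouse Hmox1 the effect was 1.35 higher at 8 h than at 4 h and 2.46 higher at 72 h than at 4 h, on the log2 scale. For mouse Mt2 it was 1.09 higher at 72 h than at 4 h, from below to above sham. These mouse differences all rest on the 4 h sham arrays, which held pituitary signal. They rest too on the 4 h injury arrays, which had the lowest beta actin ratios in mouse. For rat Hmox1 it was -3.30 at 21 d relative to 72 h.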

How the results depend on the processing

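Over 191 results and 2556 alternative values, 2455 stayed on the same side of the threshold. Another 60 lost the call, 41 gained it and no called value reversed. Of the 2455, 151 were uncalled under both settings and changed sign. Most of the 191 results were uncalled to begin with, and only called results can lose a call. The pooled counts therefore do not measure how stable the calls were. The cause of the changes was not tested beyond what each alternative leaves out. The values below are log2 differences with limma's adjusted p. Groups of 2 or 3 arrays limit most of these calls. No signal was at the floor, but J02722cds_at came near it in some arrays.

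Without the filter, the mouse Hmox1 effect at 8 h minus 4 h was 1.35 (adjusted p = 0.0747) and the Mt2A and Mt1m set at 4 h 1.70 (adjusted p = 0.0511). After quantile normalization, rat Hmox1 at 21 d minus 72 h was -3.11 (adjusted p = 0.0856) and the Mt1, Mt1f and Ttr set at 24 h 2.35 (adjusted p = 0.0241). With a floor at the 25th percentile, J02722cds_at had 2.73 (adjusted p = 0.0384) at 8 h and -4.19 (adjusted p = 0.0343) at 21 d minus 72 h. As means of probe sets, rat Hmox1 was 2.04 (adjusted p = 0.151) at 24 h and Hmox2 -1.28 (adjusted p = 0.00865) at 72 h.

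With all uninjured arrays as control, mouse Hmox1 was 0.75 (adjusted p = 0.00624), Mt2 -0.49 (adjusted p = 0.00826) and Mt3 -1.03 (adjusted p = 0.0429) at 4 h. In rat the Mt1, Mt1f and Ttr set was 2.05 (adjusted p = 0.00878) at 8 h and 1.44 (adjusted p = 0.041) at 24 h, and the Mt2A and Mt1m set 2.79 (adjusted p = 0.000598) at 8 h and 1.76 (adjusted p = 0.0278) at 72 h. J02722cds_at was 2.18 (adjusted p = 0.0318), 2.88 (adjusted p = 0.00115) and 3.30 (adjusted p = 0.00019) at 4, 8 and 24 h, and J05405mRNA_s_at -1.24 (adjusted p = 0.00831) at 24 h. Fitted on the compared groups only, mouse Mt2 was 0.57 (adjusted p = 0.0775) at 72 h, rat Hmox1 1.91 (adjusted p = 0.552) and the Mt2A and Mt1m set 1.70 (adjusted p = 0.539) at 4 h, the Mt1, Mt1f and Ttr set 1.54 (adjusted p = 0.0254) at 8 h, and J02722cds_at 3.97 (adjusted p = 0.0886) and J05405mRNA_s_at -1.94 (adjusted p = 0.164) at 72 h. Mouse Mt2 at 72 h was 0.57 (adjusted p = 0.136) with sham arrays averaged and 0.52 (adjusted p = 0.121) with the title letter as a block.

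Without the 4 rat arrays that stood apart, Hmox2 was -0.63 (adjusted p = 0.0458) at 72 h. The Mt1, Mt1f and Ttr set was 1.54 (adjusted p = 0.0355), 1.93 (adjusted p = 0.00923) and 1.30 (adjusted p = 0.0334) at 8, 24 and 72 h, and the Mt2A and Mt1m set 0.65 (adjusted p = 0.633), 1.98 (adjusted p = 0.00782) and 1.58 (adjusted p = 0.0109) at 4, 24 and 72 h. J02722cds_at was 2.73 (adjusted p = 0.0312) at 8 h and -4.20 (adjusted p = 0.0254) at 21 d minus 72 h, and J05405mRNA_s_at -1.68 (adjusted p = 0.0186) at 24 h.

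Leaving out 1 array at a time gave mouse ranges of 1.15 to 1.51 for Hmox1 at 8 h minus 4 h, 0.47 to 0.63 for Mt2 at 72 h, 0.98 to 1.20 for Mt2 at 72 h minus 4 h, 0.22 to 1.16 for Mt1 at 24 h, 0.17 to 1.31 for Mt3 at 24 h and -1.18 to -0.89 for Mt3 in sham against naive. Rat Hmox1 ranged from 1.50 to 2.49 at 4 h, 2.24 to 2.53 at 8 h, 2.08 to 2.48 at 24 h and -3.68 to -2.82 at 21 d minus 72 h. The Mt2A and Mt1m set ranged from 1.23 to 2.21 at 4 h, the Mt1, Mt1f and Ttr set from 1.43 to 2.47 at 24 h, and Mt3 from 0.80 to 2.06 at 4 h and 0.82 to 2.09 at 4 h minus 30 min. J02722cds_at ranged from 1.28 to 2.45 at 4 h, 3.29 to 4.55 at 72 h and -4.90 to -3.49 at 21 d minus 72 h, and J05405mRNA_s_at from -2.12 to -1.28 at 24 h and -2.14 to -1.67 at 72 h.

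Rat injury and sham arrays share replicate numbers, which were not taken to pair them. In deviations from the group means, arrays of the same number had correlations of -0.410 to 0.359, and those of different number -0.465 to 0.620. Where a time has 2 sham arrays, their deviations mirror each other, so those times say little about pairing. With a replicate block the Mt1, Mt1f and Ttr set was 1.84 (adjusted p = 0.0268) at 24 h and the Mt2A and Mt1m set 1.56 (adjusted p = 0.0558) at 4 h; the other 75 results kept their call.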
